A study of Mus musculus with 12 samples.

Results

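Hepatocytes of Alb-R3 and Alb-Cre mice were examined here for the genes that copy DNA and supply its building blocks, 48 h after the liver toxicant carbon tetrachloride (CCl4) or oil. The set holds 48 named genes, all of them found by symbol among the 35709 gene identifiers of the deposited table, each under 1 identifier. The genes were listed by name for what they do in replication, with earlier results of these data known. All animals were male C57BL/6J mice of 8 to 10 weeks, and hepatocytes were isolated by Liberase perfusion, differential centrifugation and Percoll. The 4 groups had 3 samples each: Alb-R3 mice given CCl4 in olive oil (0.4 mg per g of body weight), Alb-R3 mice given oil, Alb-Cre mice given the same CCl4 dose, and Alb-Cre mice given oil. Each mouse carried Cre under the albumin promoter, which drives expression in hepatocytes, so Cre is present in the controls too. Alb-R3 mice lack, by their label, the receptor tyrosine kinase gene Fgfr3 in hepatocytes, and other liver cell types would keep it. The labels do not say that each sample of a group came from a separate animal, so the spread on which p-values rest is that among these samples and may be technical in part.

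Replication starts when the origin recognition complex, with Cdc6 and Cdt1, loads the MCM helicase onto DNA, a step known as licensing. The Cdc7-Dbf4 kinase and the cyclin-dependent kinases then bring Cdc45 and the GINS complex to the helicase, polymerases alpha, delta and epsilon copy the strands, and the sliding clamp PCNA tethers the polymerases to DNA. Hepatocytes of an adult liver rarely divide, and they re-enter the cell cycle after injury such as that caused by CCl4, which is turned into a reactive radical by the enzyme Cyp2e1. Many replication genes are known targets of the E2F transcription factors, whose binding sites have a run of T letters beside a core of G and C letters.

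Promoters are shown for 4 genes. Mcm6 and Mcm5 were picked for their number of E2F-type matches. Mcm6 had the most, and Mcm5 rose most in Alb-R3 mice among the genes with 2. Clspn and Mcm10 were the genes with the highest and the lowest log2 fold change after CCl4 in Alb-R3 mice. Each stretch is the RefSeq promoter of GRCm38.p6, from 250 bases before to 50 bases after the annotated start, written 5′ to 3′ on the strand of the gene. Capitals mark the 8-letter matches TTTCCCGC, TTTCGCGC, TTTGCCGC or TTTGGCGC, read on either strand. Mcm6 and Mcm5 encode helicase subunits, Clspn encodes the fork adaptor claspin, and Mcm10 encodes a factor that activates the loaded helicase.
Mcm6, chr1:128359656-128359955, minus strand: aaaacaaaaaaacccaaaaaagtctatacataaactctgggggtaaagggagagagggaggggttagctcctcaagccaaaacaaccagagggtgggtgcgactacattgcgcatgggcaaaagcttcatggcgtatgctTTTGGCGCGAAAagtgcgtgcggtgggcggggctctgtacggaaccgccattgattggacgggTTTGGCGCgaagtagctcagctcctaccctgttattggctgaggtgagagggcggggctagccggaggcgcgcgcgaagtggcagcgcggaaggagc
Mcm5, chr8:75109259-75109558, plus strand: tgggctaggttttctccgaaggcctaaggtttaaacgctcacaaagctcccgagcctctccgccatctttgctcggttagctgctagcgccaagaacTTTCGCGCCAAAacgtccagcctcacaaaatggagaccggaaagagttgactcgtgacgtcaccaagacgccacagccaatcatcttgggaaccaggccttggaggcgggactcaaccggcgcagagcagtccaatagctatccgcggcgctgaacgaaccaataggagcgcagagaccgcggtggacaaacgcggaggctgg
Clspn, chr4:126556730-126557029, plus strand: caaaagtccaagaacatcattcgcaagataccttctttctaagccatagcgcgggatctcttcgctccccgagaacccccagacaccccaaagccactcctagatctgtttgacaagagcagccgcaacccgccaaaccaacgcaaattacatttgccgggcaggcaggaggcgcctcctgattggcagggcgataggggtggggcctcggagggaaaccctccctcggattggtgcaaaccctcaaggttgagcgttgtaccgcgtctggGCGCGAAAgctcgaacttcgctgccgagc
Mcm10, chr2:5012742-5013041, minus strand: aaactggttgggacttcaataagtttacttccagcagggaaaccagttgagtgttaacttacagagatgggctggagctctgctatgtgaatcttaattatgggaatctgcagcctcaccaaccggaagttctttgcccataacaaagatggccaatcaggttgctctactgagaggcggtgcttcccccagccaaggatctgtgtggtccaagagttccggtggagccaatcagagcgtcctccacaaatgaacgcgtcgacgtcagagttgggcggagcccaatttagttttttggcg

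The Mcm6 promoter held 3 matches, at -110, -106 and -47 bases from the start, and the matches at -110 and -106 overlapped as a sequence that reads on both strands. The Mcm5 promoter likewise held 2 overlapping matches, at -153 and -149. Clspn had 1 match, 21 bases after the start, and the Mcm10 window had 0. That window ends in TTTGGCG, all but the last letter of TTTGGCGC, and matches across its edge were not looked for. Of the 48 genes, 40 had a promoter in the table, with 46 promoters among them. An E2F-type match stood in 15 of the 46 promoters (32.6%), against 744 of 32851 promoters (2.26%) in the whole table and 2.85% of promoters of protein-coding genes. At least 2 matches stood in 10.9% of the promoters of replication genes and in 0.0974% of all promoters. The genes with a match were Clspn, Cdc6, Orc1, Mcm5, Mcm6, Pole2, Mcm3, Lig1, Gins3, Cdt1, Pold1, Mcm7, Pola1, Pold3 and Rfc3. Among promoters of genes that rose after CCl4 in both genotypes, 14 of 38 (36.8%) held a match, and 1 of 8 (12.5%) of the other promoters did. CCAAT, a common promoter motif of which either strand was counted (CCAAT or ATTGG), stood in 54.3% of the promoters of replication genes, against 37.4% of all promoters. These are matches of letters in a fixed window, and binding was not measured.

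**Figure D1:**
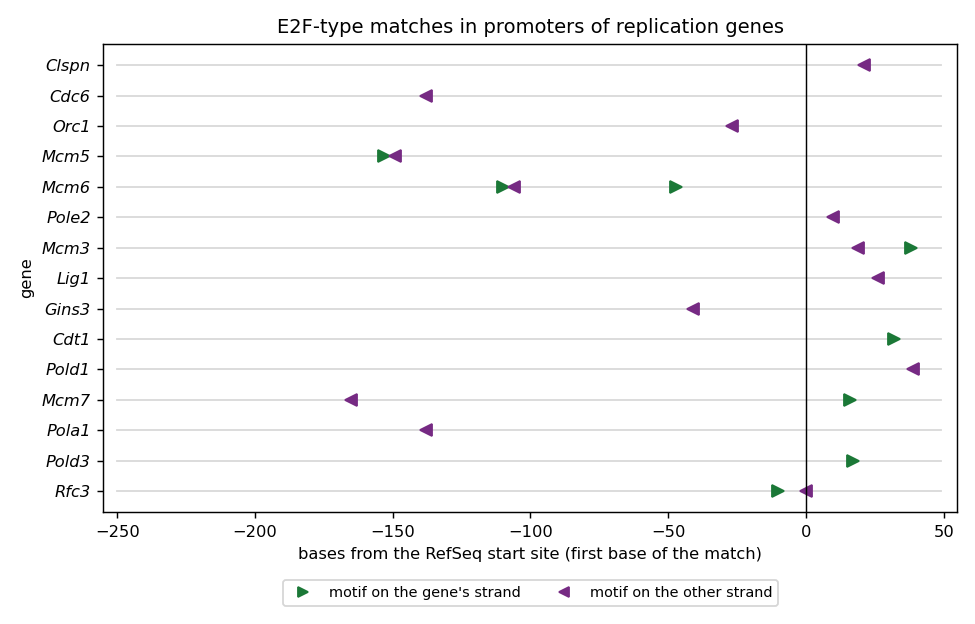
Each row is a replication gene with at least 1 E2F-type match, and triangles give the first base of a match relative to the RefSeq start site, pointing right for the strand of the gene and left for the other strand. The 3 matches of Mcm6 and the 2 of Mcm5 lie before the start, and the single match of Clspn lies 21 bases after it.

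Totals of normalized counts were between 27215000 and 38828900 per library, and the depth implied by the smallest steps in the values was between 28015100 and 39607200 reads. Fgfr3, the gene deleted in Alb-R3 mice, had 478, 372 and 382 normalized counts in Alb-R3 CCl4 libraries and 523, 650.5 and 1109 in Alb-R3 oil libraries, against 951, 706 and 753 in Alb-Cre CCl4 libraries and 735, 888 and 988 in Alb-Cre oil libraries. Replicate 3 of the Alb-R3 oil group had the highest normalized count of Fgfr3 of all 12 libraries, and the second highest FPKM (fragments scaled to gene length and library total), 13.06 against 14.88 in Alb-Cre CCl4 replicate 1. This goes against its label, so it is named below as the library labelled replicate 3 of Alb-R3 oil. The value is summed over the whole gene, and the sources used here do not name the deleted part. Replicate 1 of the Alb-R3 CCl4 group stood apart, with 32.3% of its counts from mitochondrially encoded genes, against 6.22% to 12.8% in the other 11 libraries. Albumin (Alb) took 3.19% of that library's counts, against 8.14% and 8.58% in the other Alb-R3 CCl4 libraries. Over the libraries, 12 hepatocyte markers together took 8.16% to 14.7% of the counts, and the highest sum of any other marker list was 0.0470%. The hepatocyte list holds abundant genes such as Alb, so these sums do not measure how pure the hepatocytes were.

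Most replication genes rose after CCl4 in both genotypes. In Alb-R3 mice 41 of the 48 genes rose and 1, Mcm10, fell, by limma on log2(normalized count + 1) with p-values adjusted over all 20244 genes tested and a threshold of 0.05. Among all tested genes, 10.9% rose and 6.92% fell in that comparison. In Alb-Cre mice 41 genes likewise rose and Mcm10 fell, where 3.46% of all genes rose and 0.988% fell. All 48 genes passed the filter on low values, a value of 1 or more in 3 or more samples. The median log2 fold change of the set was 2.29 in Alb-R3 and 2.15 in Alb-Cre, beside 0.00 and 0.02 for all tested genes. The groups did not overlap for 41 higher genes in Alb-R3, where 18.1% of all genes were higher without overlap, and for 46 in Alb-Cre, where 13.3% were. Without Alb-R3 CCl4 replicate 1, 41 genes rose and 1 fell in Alb-R3, and without the library labelled replicate 3 of Alb-R3 oil, 40 rose and 1 fell. Of all genes, 9.63% rose and 6.05% fell in the first of these fits, and 8.37% and 4.44% in the second. With values rescaled to genes not mitochondrially encoded, 45 replication genes rose and 1 fell in each genotype, and 23.0% of all genes were higher among the 25.4% that passed in Alb-R3, and 5.78% among 6.36% in Alb-Cre. On the FPKM scale 15.4% of all genes were higher among 18.1% that passed in Alb-R3, and 5.41% among 5.85% in Alb-Cre. Gins4, Pola2, Rfc1, Rpa3 and Tk1 passed in neither genotype. Pold2 did not pass in Alb-R3, and Pola1 did not pass in Alb-Cre. More cells that replicate and more RNA per replicating cell cannot be told apart in such bulk samples. Fold changes on the log2(value + 1) scale understate the change of genes with low values.

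**Figure D2:**
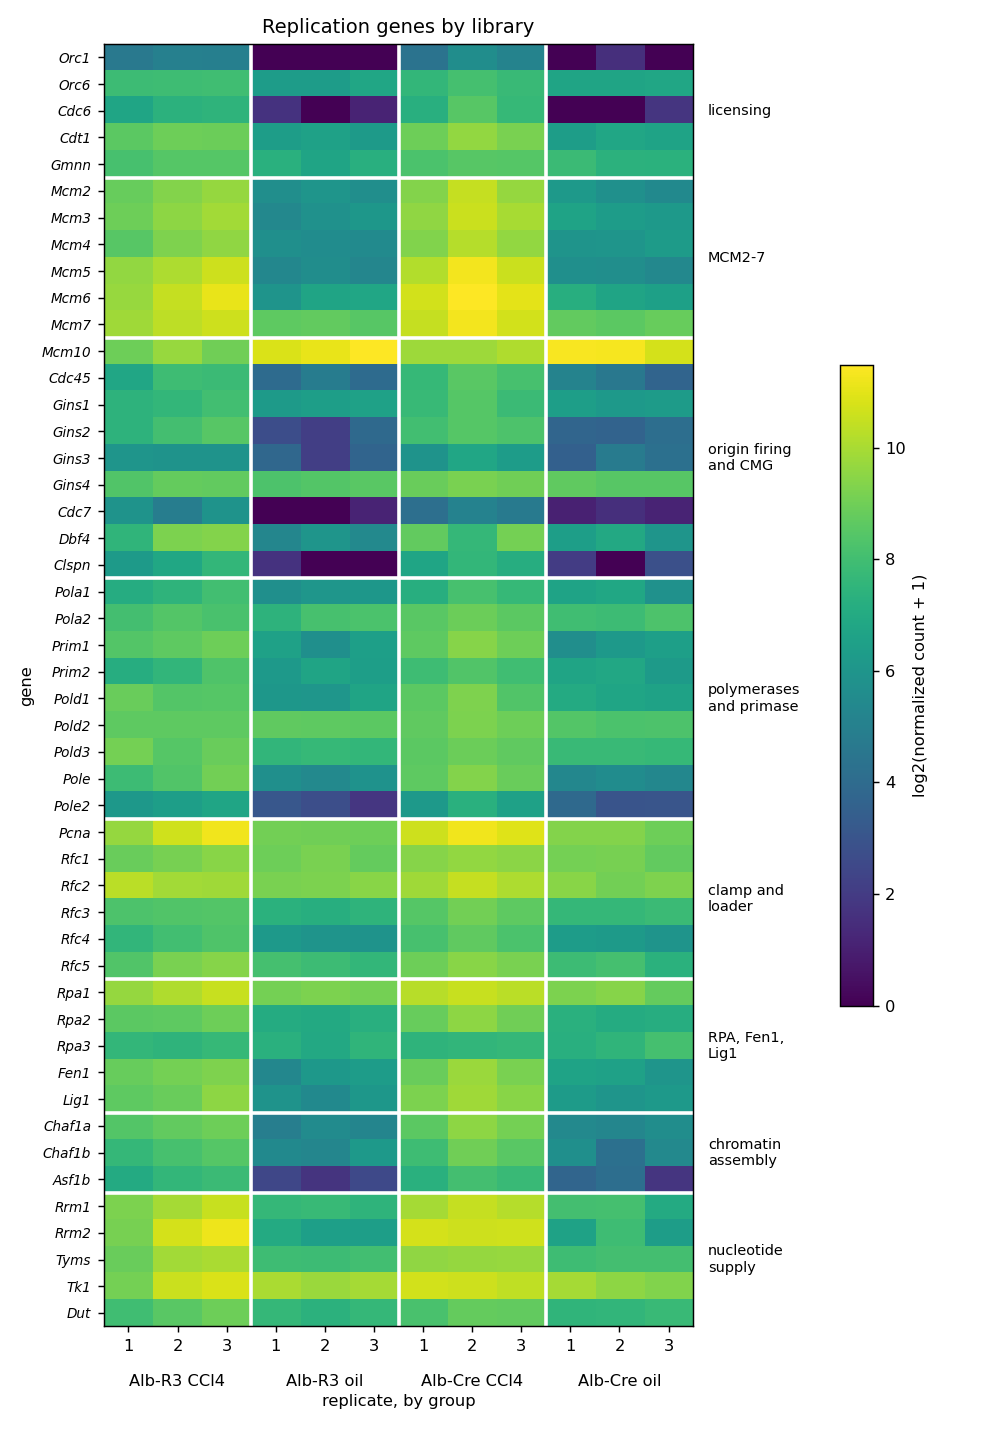
Colour gives log2(normalized count + 1) of each replication gene, in rows by role, in each of the 12 libraries, in columns by group. Values after CCl4 are higher than after oil in most rows, Mcm10 runs the other way, and Alb-R3 CCl4 replicate 1 is the lowest of its group for 41 of the 48 genes.

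The 5 genes of origin recognition and licensing rose in both genotypes, with medians of 2.42 (Alb-R3) and 2.62 (Alb-Cre) on the log2 scale. Cdc6, the ATPase that loads the helicase together with Cdt1, had 106, 168 and 177 normalized counts in Alb-R3 CCl4 libraries, against 2.19, 0 and 1.18 in Alb-R3 oil libraries. Cdc6 in Alb-Cre mice had 151, 365 and 206 after CCl4, against 0, 0 and 2.39 after oil. The gene was near 0 in each oil library and above 100 in each CCl4 library, with log2 fold changes of 6.27 ± 0.59 in Alb-R3 (SE, adjusted p = 2.1e-05) and 7.23 ± 0.59 in Alb-Cre (adjusted p = 1.23e-05). Orc1, the ATPase subunit of the origin recognition complex, was listed at 0 in all 3 Alb-R3 oil libraries, against which no fold can be given, and had 23.7, 30.8 and 29.6 in Alb-R3 CCl4 libraries. Its Alb-Cre values were 19.4, 49.2 and 34.1 after CCl4, against 0, 1.94 and 0 after oil. Orc6, the smallest subunit, rose less, by 1.40 ± 0.20 in Alb-R3 and 1.10 ± 0.20 in Alb-Cre, and Cdt1 rose by 2.42 ± 0.21 and 2.62 ± 0.21. Gmnn encodes geminin, which binds Cdt1 and blocks a repeat of licensing. It had 281, 353 and 355 normalized counts in Alb-R3 CCl4 libraries, against 156, 103 and 153 in Alb-R3 oil libraries, and 296, 360.3 and 349 in Alb-Cre CCl4 libraries, against 229.9, 166 and 162 in Alb-Cre oil libraries. Geminin thus had the smallest response of the 5, at 1.27 ± 0.22 in Alb-R3 (adjusted p = 0.00164) and 0.86 ± 0.22 in Alb-Cre (adjusted p = 0.0408). The Alb-Cre call of Gmnn was lost under 13 of 23 alternatives, among them quantile scaling, the replicate number as a block (adjusted p = 0.0809) and leaving out single libraries of either genotype, with adjusted p-values up to 0.162 without Alb-Cre CCl4 replicate 2.

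All 6 subunits of the MCM helicase, the ring that unwinds DNA at the fork, rose in both genotypes, with medians of 3.62 in Alb-R3 and 3.83 in Alb-Cre. Mcm5 moved most of the 6, with 781, 1080 and 1560 normalized counts in Alb-R3 CCl4 libraries, against 39.4, 48.7 and 37.9 in Alb-R3 oil libraries. Mcm5 in Alb-Cre mice had 1132, 2504 and 1514 after CCl4, against 52.5, 50.6 and 40.6 after oil. The lowest CCl4 library was far above the highest oil library in each genotype, and the log2 fold changes were 4.68 ± 0.30 (adjusted p = 1.01e-06) in Alb-R3 and 5.06 ± 0.30 (adjusted p = 1.53e-06) in Alb-Cre. These were the smallest adjusted p-values among the 48 genes in both comparisons. Mcm2 had 454, 645 and 809.5 normalized counts in Alb-R3 CCl4 libraries, against 50.3, 62.3 and 49.7 in Alb-R3 oil libraries. Mcm2 in Alb-Cre mice had 648, 1430 and 808 after CCl4, against 71.4, 53.5 and 43.0 after oil. Groups were again apart, and Mcm2 rose by 3.50 ± 0.30 in Alb-R3 and 4.03 ± 0.30 in Alb-Cre. Mcm7 started from a higher level: it had 925, 1306 and 1570 normalized counts in Alb-R3 CCl4 libraries, against 400.5, 420.5 and 364 in Alb-R3 oil libraries, and 1442, 2495 and 1673 in Alb-Cre CCl4 libraries, against 417, 384 and 449 in Alb-Cre oil libraries. Its response was the smallest of the 6 subunits, at 1.65 ± 0.22 in Alb-R3 (adjusted p = 0.000271) and 2.13 ± 0.22 in Alb-Cre (adjusted p = 5.95e-05). Exons of Mcm7 overlap those of Ap4m1 and Cops6 on the opposite strand, over 321 and 64 bases, and those of the microRNA genes Mir25 and Mir93 on the same strand. Mcm3, Mcm4 and Mcm6 rose by 3.71 ± 0.29, 3.52 ± 0.29 and 3.95 ± 0.34 in Alb-R3, and by 3.63 ± 0.29, 3.64 ± 0.29 and 4.25 ± 0.34 in Alb-Cre.

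Of the 9 genes of origin firing, helicase partners and fork signalling, 7 rose and Mcm10 fell in both genotypes. Clspn, whose product claspin links the fork to the checkpoint kinase Chk1, had 75.3, 114 and 194 normalized counts in Alb-R3 CCl4 libraries, against 2.19, 0 and 0 in Alb-R3 oil libraries. Clspn in Alb-Cre mice had 107, 192 and 140.5 after CCl4, against 3.15, 0 and 5.97 after oil. It was close to 0 in each oil library, and the fitted changes were 6.34 ± 0.70 in Alb-R3 (adjusted p = 6.04e-05), the largest of the 48 genes there, and 5.55 ± 0.70 in Alb-Cre (adjusted p = 0.000282). Cdc45, the helicase cofactor, rose by 3.23 ± 0.43 in Alb-R3 and 3.63 ± 0.43 in Alb-Cre. Within GINS, the 4-subunit cofactor of the helicase, Gins2 rose by 5.08 ± 0.43 in Alb-R3 and 4.39 ± 0.43 in Alb-Cre, Gins3 by 2.71 ± 0.48 and 2.17 ± 0.48, and Gins1 by 1.25 ± 0.24 and 1.69 ± 0.24. Gins4 had 325, 439.5 and 424 normalized counts in Alb-R3 CCl4 libraries, against 311, 340.0 and 374 in Alb-R3 oil libraries. Gins4 in Alb-Cre mice had 469.6, 569.6 and 506 after CCl4, against 410.5, 366 and 363 after oil. The groups overlapped in Alb-R3 and not in Alb-Cre, and neither change passed (0.21 ± 0.17, adjusted p = 0.438, and 0.44 ± 0.17, adjusted p = 0.182). Exons of Gins2 share 2758 bases with Gse1 on the opposite strand, and the sources used here do not give whether counting used strand.

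Cdc7, the kinase that fires origins, and Dbf4, its activator, both rose. Cdc7 had 58.8, 27.8 and 59.3 normalized counts in Alb-R3 CCl4 libraries, against 0, 0 and 1.18 in Alb-R3 oil libraries. Cdc7 in Alb-Cre mice had 17.5, 33.3 and 24.9 after CCl4, against 1.05, 1.94 and 1.19 after oil. No CCl4 library of either genotype came down to the oil range, and the changes were 5.18 ± 0.51 (adjusted p = 2.75e-05) in Alb-R3 and 3.43 ± 0.51 (adjusted p = 0.00118) in Alb-Cre. Dbf4 varied widely between libraries, with 183, 601 and 656 in Alb-R3 CCl4 libraries and 420.1, 199 and 541 in Alb-Cre CCl4 libraries, and rose by 3.15 ± 0.48 in Alb-R3 and 2.03 ± 0.48 in Alb-Cre (adjusted p = 0.0281). The Alb-Cre call of Dbf4 was lost under 8 of 23 alternatives, with adjusted p-values up to 0.122, and that of Gins3 under 5, up to 0.11.

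Mcm10 was the exception in the set. It had 487, 829 and 506 normalized counts in Alb-R3 CCl4 libraries, against 1818, 2235 and 2867 in Alb-R3 oil libraries. Mcm10 in Alb-Cre mice had 899, 905 and 1095 after CCl4, against 2681, 2564 and 1705 after oil. Each CCl4 library was below each oil library of its genotype, as in 15.5% of all genes in Alb-R3 and 10.4% in Alb-Cre, and Mcm10 fell by 1.94 on the log2 scale in Alb-R3 (SE 0.24, adjusted p = 0.000158) and by 1.24 in Alb-Cre (SE 0.24, adjusted p = 0.00868). Per length it was the most abundant of the 48 genes in oil-treated mice, at 34.3 FPKM in Alb-R3 and 36.1 FPKM in Alb-Cre. GENCODE M21 gives the gene, on chromosome 2 from 4989714 to 5012791 on the minus strand, 10 transcript models, of which 2 are protein coding and 7 carry a retained intron. The deposited value is a sum per gene and does not show which transcript it counts. No exon of Mcm10 overlaps an exon of another gene in that annotation. The Alb-Cre call was lost on the FPKM scale (-1.004, adjusted p = 0.0502) and without Alb-Cre oil replicate 1 (-1.12, adjusted p = 0.0516).

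**Figure D3:**
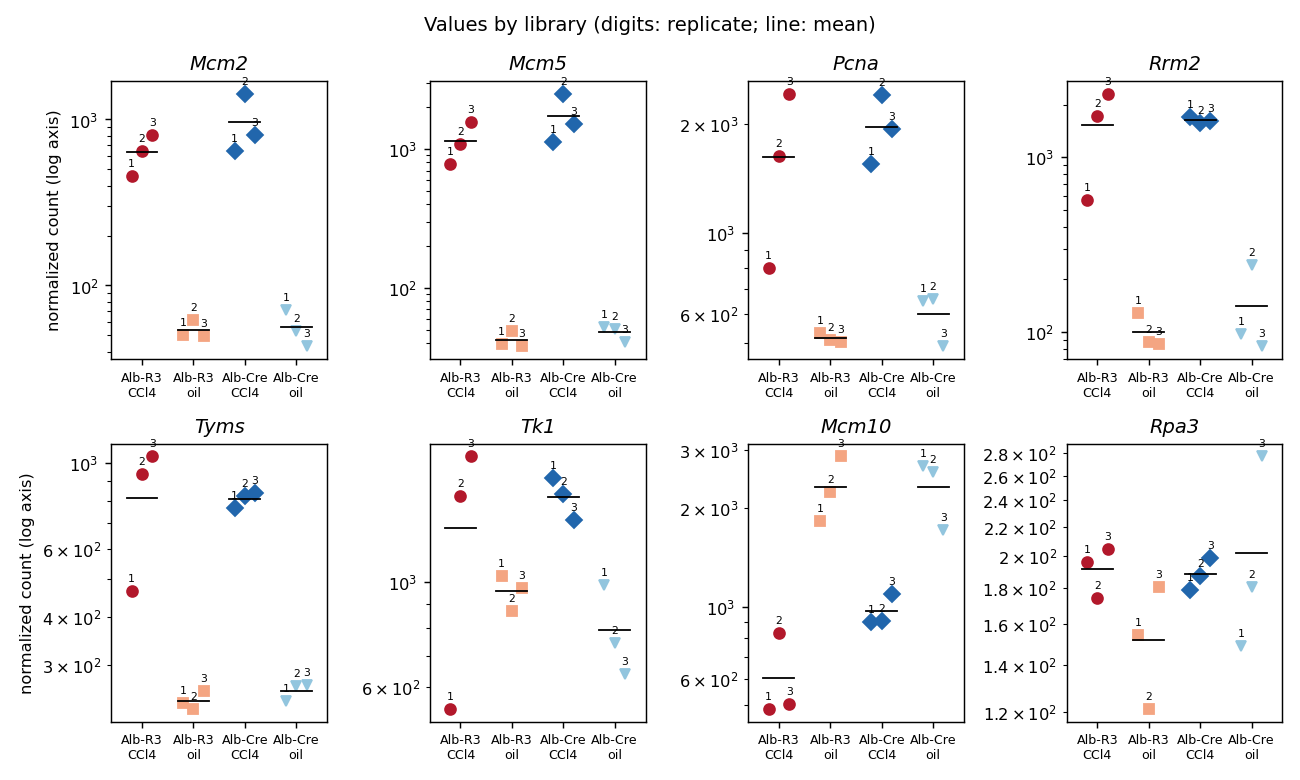
Each panel gives the normalized count of a replication gene on a log axis, with digits for the replicates of each group and lines for the group means. Mcm10 sits lower after CCl4 than after oil in both genotypes, and Alb-R3 CCl4 replicate 1 is lowest of its group in most other panels.

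Of the 9 polymerase and primase genes, 7 rose in each genotype, with medians of 1.61 in Alb-R3 and 1.47 in Alb-Cre. Pole2, an accessory subunit of the leading-strand polymerase epsilon, had 68.2, 87.1 and 105 normalized counts in Alb-R3 CCl4 libraries, against 7.71, 5.67 and 2.49 in Alb-R3 oil libraries. Pole2 in Alb-Cre mice had 72.4, 155 and 93.5 after CCl4, against 14, 6.80 and 7.16 after oil. The groups did not overlap, and Pole2 rose by 3.88 ± 0.45 in Alb-R3 (adjusted p = 9.73e-05) and 3.38 ± 0.45 in Alb-Cre (adjusted p = 0.000482). Its exons share 245 bases with the model Gm49384 on the same strand. Pole, the catalytic subunit, rose by 2.78 ± 0.29 and 3.54 ± 0.29. In polymerase delta, which copies the lagging strand, the catalytic Pold1 rose by 2.30 ± 0.27 in Alb-R3 and 1.96 ± 0.27 in Alb-Cre, and Pold3 by 1.20 ± 0.18 and 0.98 ± 0.18. Pold2, the subunit that joins these, had 393, 401 and 392 normalized counts in Alb-R3 CCl4 libraries, against 415, 394 and 387 in Alb-R3 oil libraries. Pold2 in Alb-Cre mice had 410.3, 591 and 498 after CCl4, against 343, 304 and 314 after oil. The Alb-R3 groups overlapped, with a fitted change of -0.01 ± 0.16 whose sign flipped with scaling, and the Alb-Cre groups did not (0.63 ± 0.16, adjusted p = 0.0402). The Alb-Cre call of Pold2 was lost under 14 of 23 alternatives, and without Alb-Cre CCl4 replicate 2 the change was 0.50 (adjusted p = 0.197). The primase subunits Prim1 and Prim2 rose by 2.42 ± 0.30 and 1.26 ± 0.29 in Alb-R3, and by 2.89 ± 0.30 and 1.47 ± 0.29 in Alb-Cre. Pola1, the catalytic subunit of polymerase alpha, rose by 1.61 ± 0.33 in Alb-R3 (adjusted p = 0.00547), and in Alb-Cre the value was 1.24 ± 0.33 (adjusted p = 0.0555). Pola2, its regulatory subunit, had values of 0.28 ± 0.22 and 0.63 ± 0.22 and passed in neither genotype.

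Of the sliding clamp and its loader, 5 of 6 genes rose in each genotype. Pcna, the clamp, had 804, 1628 and 2419 normalized counts in Alb-R3 CCl4 libraries, against 532, 508 and 500.3 in Alb-R3 oil libraries. Pcna in Alb-Cre mice had 1547, 2402 and 1931 after CCl4, against 652, 659 and 488 after oil. The Alb-R3 CCl4 libraries were spread widely and each still lay above oil, and Pcna rose by 1.52 ± 0.31 in Alb-R3 (adjusted p = 0.00496) and 1.70 ± 0.31 in Alb-Cre (adjusted p = 0.00526). Rfc4, a small subunit of the loader replication factor C, had 188, 256 and 318 in Alb-R3 CCl4 libraries, against 71.1, 61.2 and 58.0 in Alb-R3 oil libraries. Rfc4 in Alb-Cre mice had 281, 414 and 298 after CCl4, against 79.8, 75.8 and 59.7 after oil. It was the loader gene that moved most, by 1.96 ± 0.25 in Alb-R3 and 2.18 ± 0.25 in Alb-Cre. Rfc1, the large subunit, had 465, 564 and 704 in Alb-R3 CCl4 libraries, against 494, 583 and 442 in Alb-R3 oil libraries. Rfc1 in Alb-Cre mice had 679, 790.4 and 711 after CCl4, against 550.1, 561 and 422 after oil. The Alb-R3 groups overlapped and neither change passed (0.18 ± 0.19, adjusted p = 0.559, and 0.52 ± 0.19, adjusted p = 0.162). Rfc2, Rfc3 and Rfc5 rose by 0.73 to 1.12 in Alb-R3 and by 0.89 to 1.42 in Alb-Cre. Exons of Rfc2 share 952 bases with Lat2 on the opposite strand.

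Among the genes of single-strand binding and Okazaki fragment maturation, 4 of 5 rose in each genotype. Lig1, the ligase that seals the fragments of the lagging strand, had 396, 462 and 749 normalized counts in Alb-R3 CCl4 libraries, against 58.0, 43.1 and 66.2 in Alb-R3 oil libraries. Lig1 in Alb-Cre mice had 589, 919.6 and 703 after CCl4, against 78.7, 63.2 and 71.6 after oil. The groups were well apart, and Lig1 rose by 3.21 ± 0.26 in Alb-R3 (adjusted p = 7.8e-06) and 3.34 ± 0.26 in Alb-Cre (adjusted p = 1.22e-05). Fen1, the flap nuclease that acts just before it, rose by 3.11 ± 0.31 and 2.83 ± 0.31, but its exons share 1909 bases with the model Gm10143 on the opposite strand. The 3 subunits of replication protein A, which coats single strands, did not move alike: Rpa1 rose by 0.98 ± 0.21 in Alb-R3 and 1.22 ± 0.21 in Alb-Cre, and Rpa2 by 1.64 ± 0.20 and 1.95 ± 0.20. Rpa3 had 196, 174 and 204 in Alb-R3 CCl4 libraries, against 154, 121 and 181 in Alb-R3 oil libraries. Rpa3 in Alb-Cre mice had 179, 188 and 199 after CCl4, against 149, 181 and 277 after oil. The groups overlapped in both genotypes, the values were 0.35 ± 0.24 and -0.05 ± 0.24, and the sign of the Alb-Cre value turned under other scalings.

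All 3 genes that place histones on new DNA rose in both genotypes. Asf1b, the histone chaperone that hands over H3 and H4, had 128, 191 and 226 normalized counts in Alb-R3 CCl4 libraries, against 4.38, 2.27 and 4.73 in Alb-R3 oil libraries. Asf1b in Alb-Cre mice had 158, 265 and 220.3 after CCl4, against 12.6, 16.5 and 2.39 after oil. Its oil values were all below 20 and its CCl4 values all above 100, with changes of 5.26 ± 0.54 in Alb-R3 (adjusted p = 3.35e-05) and 4.50 ± 0.54 in Alb-Cre (adjusted p = 0.000185). Chaf1b, the middle subunit of chromatin assembly factor 1, had 199, 280.5 and 346 in Alb-R3 CCl4 libraries, against 42.7, 37.4 and 71.1 in Alb-R3 oil libraries. Chaf1b in Alb-Cre mice had 244, 516 and 374 after CCl4, against 52.5, 18 and 41.1 after oil. Again no CCl4 library fell into the oil range, and Chaf1b rose by 2.44 ± 0.41 and 3.37 ± 0.41. Chaf1a, the large subunit, rose by 3.45 ± 0.27 and 3.62 ± 0.27, and its exons share 4648 bases with Ubxn6 on the opposite strand.

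Of the 5 genes of deoxynucleotide supply, 4 rose in each genotype. Rrm2, the radical-bearing subunit of ribonucleotide reductase that is made in S phase, had 566, 1724 and 2319 normalized counts in Alb-R3 CCl4 libraries, against 128, 87.3 and 85.2 in Alb-R3 oil libraries. Rrm2 in Alb-Cre mice had 1696, 1576 and 1614 after CCl4, against 96.6, 242 and 82.3 after oil. The Alb-R3 CCl4 libraries were spread widely and the Alb-Cre CCl4 libraries were close together, and Rrm2 rose by 3.73 ± 0.46 in Alb-R3 (adjusted p = 0.000158) and 3.70 ± 0.46 in Alb-Cre (adjusted p = 0.000266). Rrm1, the catalytic subunit, rose by 2.28 ± 0.33 and 2.48 ± 0.33. Tyms, which makes thymidylate, had 466, 937 and 1043 in Alb-R3 CCl4 libraries, against 239, 230.4 and 257 in Alb-R3 oil libraries. Tyms in Alb-Cre mice had 766, 823 and 838 after CCl4, against 241, 264 and 266 after oil. Oil values were nearly equal in the 6 libraries, and Tyms rose by 1.67 ± 0.24 in Alb-R3 (adjusted p = 0.000505) and 1.65 ± 0.24 in Alb-Cre (adjusted p = 0.000971). Dut, the enzyme that removes dUTP, rose by 0.93 ± 0.24 (adjusted p = 0.0185) and 0.95 ± 0.24 (adjusted p = 0.0421). The call of Dut was lost under 3 of 23 alternatives in Alb-R3 (adjusted p up to 0.0739) and under 13 in Alb-Cre (up to 0.181).

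Tk1, the thymidine kinase of the salvage route, was the gene of this group that did not pass. It had 539.6, 1521 and 1846 normalized counts in Alb-R3 CCl4 libraries, against 1030, 868 and 974 in Alb-R3 oil libraries. Tk1 in Alb-Cre mice had 1658, 1540 and 1352 after CCl4, against 989, 746 and 641 after oil. Alb-R3 CCl4 replicate 1 lay below each oil library of its genotype and replicates 2 and 3 lay above them, while the Alb-Cre groups did not overlap. Neither change passed, at 0.27 ± 0.35 in Alb-R3 (adjusted p = 0.652) and 0.96 ± 0.35 in Alb-Cre (adjusted p = 0.163). Without Alb-R3 CCl4 replicate 1 both passed, at 0.81 in Alb-R3 (adjusted p = 0.0107) and 0.96 in Alb-Cre (adjusted p = 0.00329). Without Alb-R3 CCl4 replicate 3 the Alb-R3 value was -0.08 (adjusted p = 0.911).

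**Figure D4:**
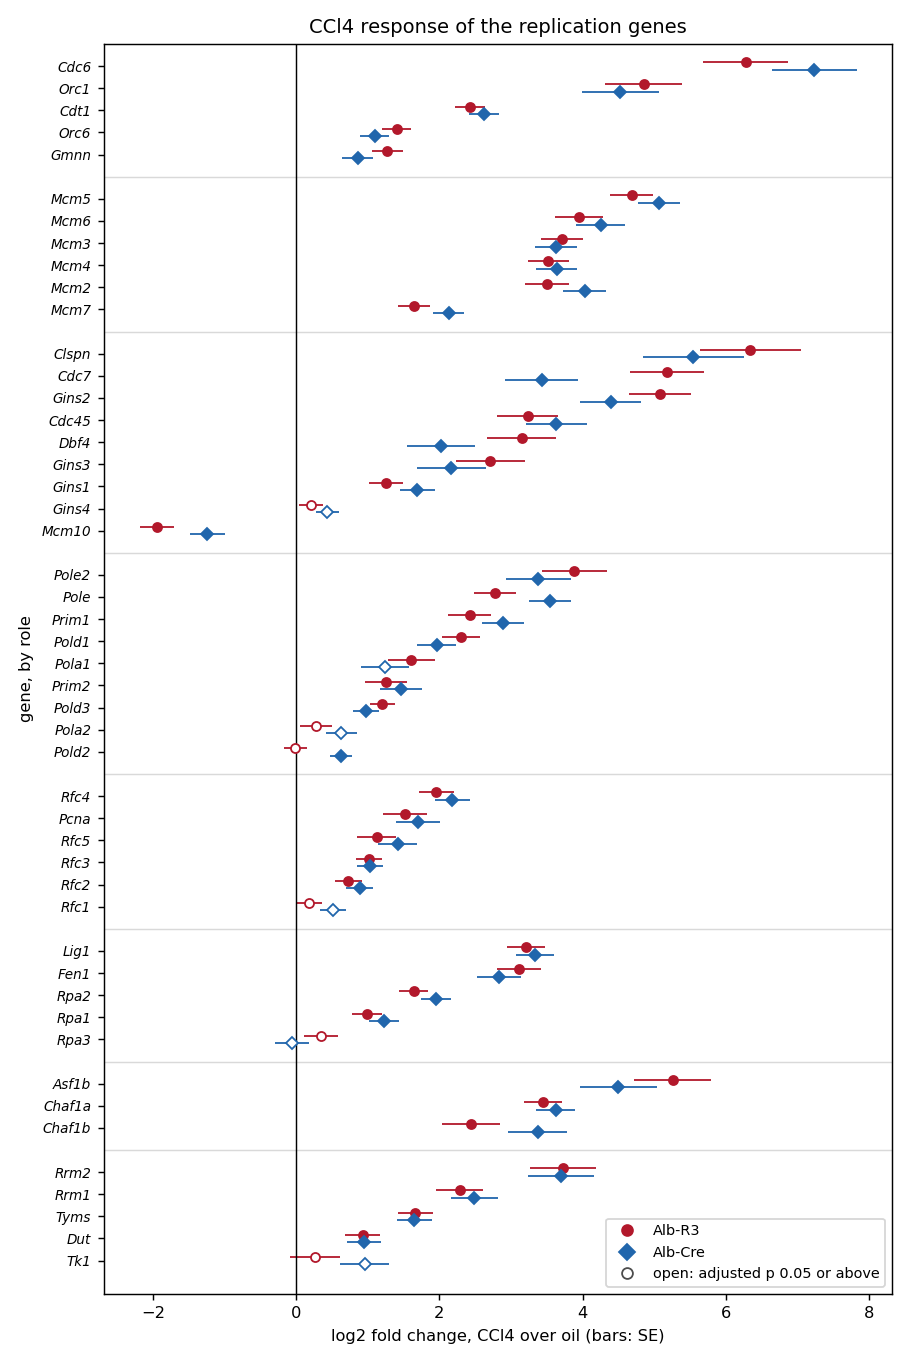
Points give the log2 fold change of each replication gene, CCl4 over oil, by role, with bars for limma's standard error, for Alb-R3 and Alb-Cre, and open symbols did not pass. Most points lie right of 0, Mcm10 lies left of 0 at -1.94 and -1.24, and Clspn and Cdc6 lie farthest right.

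On the FPKM scale, which allows levels of genes to be compared, the median level of the 48 genes was 9.76 in Alb-R3 CCl4 mice and 1.52 in Alb-R3 oil mice, and 11.7 in Alb-Cre CCl4 mice and 1.97 in Alb-Cre oil mice. A mean of at least 1 FPKM was reached by 46 genes in Alb-R3 CCl4 mice and 30 in Alb-R3 oil mice, and by 47 in Alb-Cre CCl4 mice and 33 in Alb-Cre oil mice. All tested genes also shifted up after CCl4 on log2(FPKM + 0.1), with medians of 0.17 in Alb-R3 and 0.15 in Alb-Cre. Those of the 48 genes were 2.46 and 2.18. After oil the most abundant genes were Mcm10, Tk1 (23.9 FPKM in Alb-R3, 20.5 in Alb-Cre) and Pcna (15.6 and 18.9). After CCl4 Pcna led, at 62.0 FPKM in Alb-R3 and 72.1 in Alb-Cre, and Cdc7 was lowest, at 0.689 and 0.360 FPKM. Genes for subunits of a complex were closer in level after CCl4 than after oil in several complexes. For the MCM ring, the highest subunit over the lowest was 3.11 in the median Alb-R3 CCl4 library against 18.01 in the median Alb-R3 oil library, and 3.13 against 14.9 in Alb-Cre. Mcm7 was the highest subunit in each group, at 40.2 FPKM in Alb-R3 CCl4 mice and 10.1 in Alb-R3 oil mice, while Mcm5 was the lowest after oil, at 0.576 FPKM in Alb-R3. For GINS this ratio was 8.93 after CCl4 against 89.9 after oil in Alb-R3, and 7.58 against 49.6 in Alb-Cre. In polymerase delta it was 2.34 against 12.7 in Alb-R3, and 2.23 against 5.92 in Alb-Cre. Replication protein A went the other way, at 1.96 against 1.48 in Alb-R3 and 2.20 against 1.83 in Alb-Cre. Ribonucleotide reductase did so too, at 2.54 against 1.28 and 2.19 against 1.43: Rrm2 reached 47.1 FPKM in Alb-R3 CCl4 mice and 47.9 in Alb-Cre CCl4 mice, and Rrm1 19.0 and 21.4. These ratios are given as a description, with no test.

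**Figure D5:**
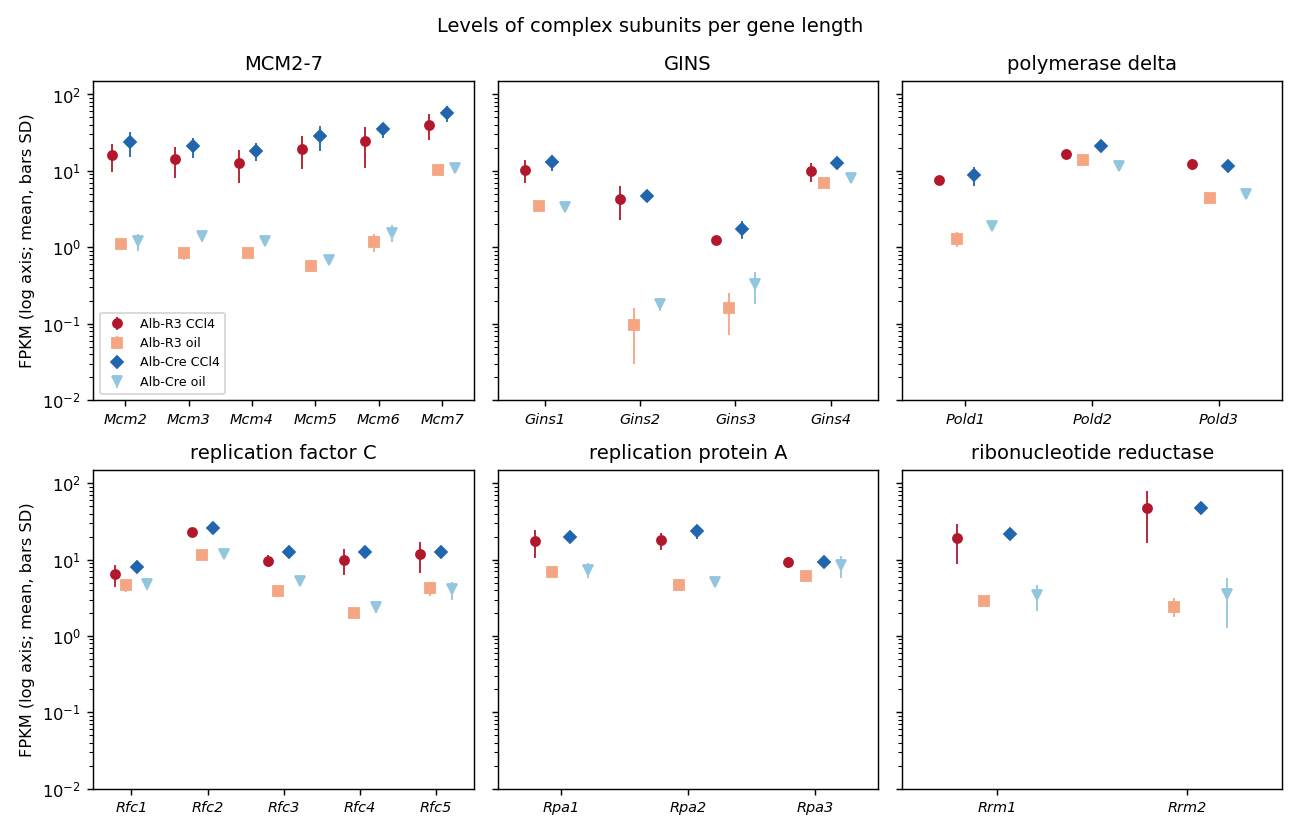
Mean FPKM of each subunit gene on a log axis, with bars for the SD of 3 libraries, in 6 complexes and 4 groups. The MCM2-7 genes lie within 12.8 to 40.2 FPKM in Alb-R3 CCl4 mice and within 0.576 to 10.1 FPKM in Alb-R3 oil mice, and Rrm2 stands above Rrm1 after CCl4.

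Other genes of replication and nucleotide supply, 65 in 5 lists, gave these counts: 29 rose and 2 fell in Alb-R3, and 23 rose and 0 fell in Alb-Cre (31 had an unadjusted limma p under 0.05 there, against 17.1% of all genes). Among all tested genes, 10.9% rose and 6.92% fell in Alb-R3, and 3.46% rose and 0.988% fell in Alb-Cre. Of 12 other licensing and firing genes, 7 rose in Alb-R3 and 6 in Alb-Cre. Ticrr, which with Mtbp and Topbp1 loads Cdc45, had the largest change, 5.86 and 5.45, while Orc3, Orc4 and Orc5 passed in neither genotype, with values between -0.32 and 0.37. Of 15 fork and clamp genes, 9 rose in Alb-R3 and 8 in Alb-Cre, led by Chtf18 of the alternative clamp loader (5.34 and 4.81) and by Pclaf, a PCNA-binding factor (4.43 and 4.13). Of 6 further genes whose products handle histones or their mRNA, 4 and 3 rose. Among them were Slbp, which binds histone mRNA (1.22 and 1.14), Hat1, a histone acetyltransferase (1.45 and 1.48), and Hirip3 (1.33 and 1.66).

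Synthesis of purines and pyrimidines was mixed, with 6 of 18 genes higher and 1 lower in Alb-R3 and 4 higher and 0 lower in Alb-Cre. The shares of all tested genes were 10.9% higher and 6.92% lower in Alb-R3, and 3.46% and 0.988% in Alb-Cre. Ctps, which makes CTP, rose by 2.21 in Alb-R3 and 1.68 in Alb-Cre, Mthfd2, a mitochondrial folate enzyme, by 2.17 and 2.34, and Cad, which starts pyrimidine synthesis, by 1.17 and 1.42. Impdh1, an enzyme of guanine nucleotide synthesis, rose in Alb-R3 (2.39, adjusted p = 0.000301), and its Alb-Cre value was 0.76 (adjusted p = 0.247). Impdh1 had 197, 116 and 134 normalized counts in Alb-R3 CCl4 libraries, against 24.1, 29.5 and 27.2 in Alb-R3 oil libraries. In Alb-Cre mice Impdh1 had 62.2, 92.7 and 95.6 after CCl4, against 56.7, 32.1 and 60.9 after oil. When limma compared the CCl4 responses of the genotypes, 0 of these 18 genes passed (smallest adjusted p = 0.406), where 0.0% of all genes did. Shmt1, the cytosolic serine hydroxymethyltransferase, fell by 0.86 in Alb-R3 (adjusted p = 0.0224). Of 14 salvage genes, 3 rose and 1 fell in Alb-R3 and 2 rose in Alb-Cre, to be read beside the same shares of all genes. Dctd, which deaminates dCMP, rose by 3.23 and 2.98, with at most 2.37 normalized counts in each oil library, and Dck, the deoxycytidine kinase, rose by 1.54 and 1.90. Tymp, which breaks thymidine down, fell by 1.68 in Alb-R3, where the library labelled replicate 3 of Alb-R3 oil had 797.8 normalized counts against 2376 and 2779 in the other oil libraries. Rrm2b, the reductase subunit used outside S phase, had values of -0.07 and 0.09.

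Markers of other liver cells moved with CCl4 in Alb-R3. All 12 Kupffer cell and macrophage markers rose there (median 2.32), as did 8 of 10 endothelial, 9 of 10 stellate cell and 2 of 8 monocyte and neutrophil markers, while 0 of 9 T, B and NK cell markers passed. In Alb-Cre 0 of 12 Kupffer cell, 0 of 10 endothelial, 0 of 8 monocyte and 4 of 10 stellate cell markers rose. Among all tested genes, 10.9% rose in Alb-R3 and 3.46% in Alb-Cre. The summed Kupffer cell markers took 0.0099% to 0.0470% of counts in Alb-R3 CCl4 libraries, against 0.0029% to 0.0037% in Alb-R3 oil libraries, and 0.0060% to 0.0080% in Alb-Cre CCl4 libraries, against 0.0045% to 0.0088% in Alb-Cre oil libraries. Summed endothelial markers took 0.0127% to 0.0186% in Alb-R3 CCl4 libraries, against 0.0051% to 0.0053% in Alb-R3 oil libraries, and 0.0110% to 0.0172% in Alb-Cre CCl4 libraries, against 0.0089% to 0.0122% in Alb-Cre oil libraries. Summed stellate cell markers took 0.00364% to 0.0123% in Alb-R3 CCl4 libraries, against 0.00148% to 0.00198% in Alb-R3 oil libraries, and 0.00592% to 0.0089% in Alb-Cre CCl4 libraries, against 0.00352% to 0.0039% in Alb-Cre oil libraries. The endothelial and stellate sums of the Alb-R3 CCl4 libraries overlapped those of the Alb-Cre CCl4 libraries, and those of the Alb-R3 oil libraries were the lowest of the 4 groups. Summed monocyte and neutrophil markers took 0.000294% to 0.00523% in Alb-R3 CCl4 libraries, against 0.000110% to 0.000160% in Alb-R3 oil libraries, and 0.000168% to 0.000448% in Alb-Cre CCl4 libraries, against 0.000118% to 0.000238% in Alb-Cre oil libraries. The highest Kupffer cell and monocyte sums were those of Alb-R3 CCl4 replicate 1. No Kupffer cell or endothelial marker was at 0 throughout a group. The median marker change in Alb-Cre was -0.17 for Kupffer cells, 0.41 for endothelial cells and 1.20 for stellate cells. The part of these cells in the values of the replication genes was not tested. None of the 12 hepatocyte markers rose in Alb-R3, and Cyp2e1 and Pck1 fell, where 6.92% of all genes fell. In Alb-Cre 0 of the 12 passed in either direction (smallest adjusted p in limma 0.0786), where 0.988% of all genes fell. The lowest value among them there was -2.33.

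After CCl4 no replication gene passed the test between Alb-R3 and Alb-Cre (0 of 48, where 0.173% of all genes did, and 3 of 48 had an unadjusted p under 0.05 in limma, against 7.77% of all genes). Of all genes 0.084% were higher and 0.0889% lower in Alb-R3. The fitted values lay mostly below 0: 43 of the 48 were lower in Alb-R3, with a median of -0.34, beside 50.1% below 0 and a median of 0.00 among all genes. The 3 genes of smallest p were Mcm10 (-0.71 ± 0.24), Mcm7 (-0.55 ± 0.22) and Gins4 (-0.39 ± 0.17), with limma's adjusted p-values of 0.463, 0.549 and 0.596. Groups did not overlap, all lower in Alb-R3, for Cdt1, Mcm10, Gins4, Pola2, Pold2 and Rfc3, where 5.86% of all genes were lower and 6.16% higher without overlap. Alb-R3 CCl4 replicate 1, the library rich in mitochondrial RNA, was the lowest of its group for 41 of the 48 genes, at a median of 0.649 of the mean of replicates 2 and 3. Alb-Cre CCl4 replicate 2 was the highest of its group for 42 genes, at a median of 1.43 of the mean of replicates 1 and 3. The 48 genes together took 0.0501%, 0.0893% and 0.118% of counts in Alb-R3 CCl4 libraries, against 0.0899%, 0.121% and 0.105% in Alb-Cre CCl4 libraries, so that the groups overlapped. Without Alb-R3 CCl4 replicate 1, 33 genes lay below 0 and the median was -0.20. Without Alb-Cre CCl4 replicate 2, 36 lay below 0 and the median was -0.19. With Alb-R3 CCl4 replicate 3 or Alb-Cre CCl4 replicate 1 left out, 45 lay below 0 and the medians were -0.48 and -0.47. Rescaled to genes not mitochondrially encoded, 38 lay below 0 with a median of -0.20, beside 36.4% and a median of 0.12 among all genes. In the same comparison 12 of 12 Kupffer cell markers (median 1.51) and 8 of 8 monocyte and neutrophil markers (median 1.77) lay above 0, and 11 of 12 hepatocyte markers lay below 0 (median -0.39). None of these passed, and 10 of the Kupffer cell, 2 of the monocyte and neutrophil and 2 of the hepatocyte markers had an unadjusted p under 0.05 in limma. The part of these cells in the result was not tested.

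After oil, too, 0 of 48 genes passed between Alb-R3 and Alb-Cre in limma, where 0.207% of all genes did, and 2 had an unadjusted p under 0.05, against 6.49% of all genes. Of all genes 0.0988% were higher and 0.109% lower. In all, 39 of the 48 lay below 0, against 48.6% of all genes, with a median of -0.19. The groups did not overlap for 4 genes lower in Alb-R3 (Gmnn, Mcm3, Mcm4 and Rfc3) and 1 higher (Pold2), where 5.63% of all genes were lower and 5.66% higher without overlap. Mcm3 had 40.5, 54.4 and 66.2 normalized counts in Alb-R3 oil libraries, against 101, 81.7 and 74.0 in Alb-Cre oil libraries, a difference of -0.68 ± 0.29 (adjusted p = 0.711). Gins2 had 5.47, 3.40 and 14.2 in Alb-R3 oil libraries, against 12.6, 11.7 and 16.7 in Alb-Cre oil libraries (-0.94 ± 0.43, adjusted p = 0.754), and Rfc3 had 161, 146 and 174 against 197, 198 and 229 (-0.38 ± 0.18, adjusted p = 0.819). The Gins2 groups overlapped, and those of Mcm3 and Rfc3 did not. Without the library labelled replicate 3 of Alb-R3 oil, 37 genes lay below 0 and 0 passed, and without Alb-R3 oil replicate 1 the median was -0.11. Markers of other cells also lay below 0 in this comparison, without passing: 10 of 10 endothelial (median -1.11), 12 of 12 Kupffer cell (median -1.03) and 9 of 10 stellate cell markers (median -1.14). Of these 9, 5 and 7 markers, in the same order, had an unadjusted p under 0.05 in limma, and their part in the result was not tested. With array weights, which weigh each library by its scatter, Mcm3 (-0.97, adjusted p = 0.0267) and Asf1b passed as lower in Alb-R3, 2 of 48, where 1.94% of all genes did and 3.28% passed in either direction.

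In limma's interaction term, the CCl4 response of Alb-R3 minus that of Alb-Cre, no replication gene passed (0 of 48, where 0.0% of all genes passed, and 2 of 48 with an unadjusted p under 0.05, against 7.49% of all genes). Pold2 (-0.64 ± 0.22), Cdc7 (1.75 ± 0.73) and Mcm10 (-0.70 ± 0.34) had the smallest p, with adjusted p-values of 0.518, 0.596 and 0.692. The median over the set was -0.18, with 30 genes below 0, beside 51.8% of all genes, and it moved with the setting and with single libraries. With array weights the median was 0.05, with 18 genes below 0, beside 49.8% of all genes. Rescaled to genes not mitochondrially encoded, it was 0.04, with 20 genes below 0, beside 34.7% and a median of 0.18 among all genes. The median of the set was 0.05 without Alb-R3 CCl4 replicate 1, -0.0040 without Alb-Cre CCl4 replicate 2 and -0.080 without Alb-Cre oil replicate 3. It was -0.34 with Alb-R3 CCl4 replicate 3 left out and -0.30 with Alb-Cre CCl4 replicate 1 left out. Beside it, 12 of 12 Kupffer cell (median 2.40) and 10 of 10 endothelial markers (median 1.20) lay above 0 without passing, and their part was not tested. Standard errors of these differences ran from 0.22 for Pold2 to 0.99 for Clspn on the log2 scale, which limits the differences in response that these libraries could show.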

How the data were processed

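RNA-seq of isolated mouse hepatocytes was analysed from 12 samples, 3 in each of 4 groups set by the labels. The authors deposited for each gene and sample an FPKM value and a normalized count, treated here as a signal, as the file headers say. Kallisto 0.44.0, edgeR and GRCm38.p6 are named in the submitters' processing notes; the normalization and the strand used in counting are not given in the sources used here. Among low values 70.2% to 74.4% per sample were whole multiples of the value of 1 read (tolerance 0.02), so no count model was run.

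Normalized counts, with 1 added, were taken to log2 and fitted in limma 3.58.1 (R 4.3.3) with 1 coefficient per group, 8 residual degrees of freedom and a mean-variance trend. Tests covered 5 comparisons and 20244 genes, those at 1 or more in 3 or more samples, with Benjamini-Hochberg adjustment over all of them and a threshold of 0.05. The script was tested on simulated data. The 48 genes, the lists and the comparisons were chosen with earlier results of these data known. Genes given with each sample's value were, in each role, those of largest and smallest change in Alb-R3, with Mcm2, Pcna, Rrm2 and Tyms, and the 3 genes of smallest p in each genotype comparison and in the difference of responses; Orc1, Dbf4 and Impdh1 were added after their values were seen. Of the listed pathway genes Chtf8, which had 2 identifiers, was left out. Motifs were searched on both strands of RefSeq promoters of GRCm38.p6, and gene positions are those of GENCODE M21. Exon overlaps are stated above for some genes only. Others had them too, such as Orc1 (376 bases with Gm12743) and Rfc5 (499 with Wsb2), both on the opposite strand. No pair of samples held identical values. With 3 samples per group an exact permutation test could not go below 0.1, so none was used.

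Alternatives were other scalings (quantile, rescaling to genes not mitochondrially encoded), no trend, array weights, other filters and pseudocounts, the FPKM scale, only the samples compared, the replicate number as a block, a threshold of 0.01 and leaving out each sample.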

Additional observations from a re-analysis of the deposited data

How the results depend on the processing

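The counts of replication genes that rose after CCl4 kept within 1.5 times of their main values under each alternative run. Leaving out each sample in turn gave 39 to 41 genes in Alb-R3 and 35 to 43 in Alb-Cre, the 35 without Alb-Cre CCl4 replicate 2. Of all genes, 6.93% to 11.3% then rose in Alb-R3 and 2.17% to 4.75% in Alb-Cre, the 2.17% without that same replicate. At the stricter threshold of 0.01 the counts were 37 and 34, and the share of all genes was not computed there. Rescaling to genes not mitochondrially encoded moved the median of all genes by 0.37 in Alb-R3 and 0.18 in Alb-Cre on the log2 scale, and 45 genes then rose in each. The count that fell in Alb-Cre, Mcm10 alone, was 0 on the FPKM scale, and it was 0 to 1 when single samples were left out. In the oil comparison of genotypes, array weights gave 2 lower genes of 48 in place of 0, where the share of all genes that passed was 3.28% in place of 0.207%.

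In the comparisons of CCl4 with oil, signs turned for 3 genes that did not pass. Pold2, CCl4 against oil in Alb-R3, was 0.40 when rescaled to genes not mitochondrially encoded, 0.25 on the FPKM scale and between -0.033 and 0.017 with single samples left out. Rpa3, CCl4 against oil in Alb-Cre, was 0.14 when rescaled, 0.22 with array weights, 0.17 on the FPKM scale and between -0.25 and 0.20 with single samples left out. Tk1, CCl4 against oil in Alb-R3, was between -0.076 and 0.81 with single samples left out. Between the genotypes, signs turned for more genes. After CCl4, 5 genes lay above 0 in the main fit, 15 without Alb-R3 CCl4 replicate 1, 10 with array weights and 10 when rescaled. In the interaction, 18 lay above 0 in the main fit, 28 when rescaled and 30 with array weights. The rescaling moves all genes of a comparison alike apart from the pseudocount, so values near 0 turn by its construction. The cause of the other turns was not tested.

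Over the 48 genes and 23 alternatives, not counting the stricter threshold, 12 calls were lost and 6 gained in Alb-R3, and 60 lost and 14 gained in Alb-Cre. The losses in Alb-R3 were of Prim2, Rfc2, Rfc5 and Dut, under 3 alternatives each. Those in Alb-Cre were of Pold2 (14), Gmnn (13), Dut (13), Dbf4 (8), Gins3 (5), Rfc2 (4), Mcm10 (2) and Prim2 (1). With the replicate number as a block, 41 genes rose in Alb-R3 and 39 in Alb-Cre, 1 fell in each, and 0 passed in the other 3 comparisons. Of all genes, 9.77% rose and 5.5% fell in Alb-R3 with this block, and 2.8% rose and 0.726% fell in Alb-Cre. The labels do not state that the numbers pair the samples, so they were not taken to do so. Residuals of samples with the same number correlated between -0.19 and 0.20 over 18 pairs, and those with other numbers between -0.21 and 0.27 over 36 pairs. The fit to only the samples compared has no counterpart for the difference of responses. Depth limits genes near 0 in oil libraries, such as Cdc6, Orc1, Clspn and Cdc7, whose fold changes depend on the pseudocount.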
